A study of Homo sapiens with 8 samples.

Results

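The ERBB receptors and their ligands were examined in DLD1 cells, an established human colorectal cancer line. The members are 10 genes: the receptors EGFR, ERBB2 and ERBB3 and the ligands AREG, EREG, TGFA, HBEGF, BTC, EPGN and NRG1. The genes were chosen as a family, with earlier results of these data known, and their probes are all non-control probes that the array files assign to these symbols, which gave 19 of the 50599 probes and 10 of the 36337 gene names on the array. RNA was measured on 8 single-colour Agilent arrays in 4 groups of 2. Cells received a control siRNA (siCONT) or an siRNA against UHRF1 for 48 h, and then either ethanol (mock) or 300 nM trichostatin A (TSA) for a further 24 h. The groups are therefore siCONT with mock, siUHRF1 with mock, siCONT with TSA, and siUHRF1 with TSA. In both siUHRF1 groups the arrays carry different siRNAs, siUHRF1-1 and siUHRF1-2. The knockdown was transient, a single cell line was used, and no array carries untransfected cells.

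ERBB receptors are tyrosine kinases of the cell surface that act as pairs. EGFR and ERBB3 bind ligands, ERBB2 binds none and serves as the preferred partner of the others, and ERBB3 has little kinase activity of its own and recruits PI3 kinase. AREG, EREG, TGFA, HBEGF, BTC and EPGN bind EGFR, HBEGF, BTC and EREG also bind ERBB4, and NRG1 binds ERBB3 and ERBB4. The ligands are made as membrane proteins and released by ADAM proteases, and AREG and EREG are the ligands best known from colorectal tumors, where they mark dependence on EGFR. UHRF1 guides the maintenance DNA methyltransferase DNMT1 to replicated DNA, and TSA inhibits histone deacetylases.

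A level is the log2 intensity of a probe minus the array's 75th percentile, and it compares arrays for a probe, not probes with each other. By their brightest probes, ERBB2 and ERBB3 fell with TSA, by 2.99-fold and 2.51-fold in siCONT cells. They were 4.29-fold and 4.14-fold lower with UHRF1 depletion plus TSA than in siCONT cells with mock. Another probe of each of these genes showed no such fall. EGFR did not follow ERBB2 and ERBB3, and its brightest probe fell with UHRF1 depletion, by 2.43-fold under mock and 2.22-fold under TSA. None of the ligands was called changed by its brightest probe in any of the 6 comparisons. A gene was called changed at a limma adjusted p under 0.05 over all tested probes and a change of at least 2-fold. In a bulk measurement, fewer cells with a transcript and less of it per cell cannot be told apart.

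The sequences shown next are of probes other than the brightest one of a gene, and of promoters. The calls of ERBB2, ERBB3 and EGFR rest on their brightest probes, which are not printed. The first set holds probes of EGFR, ERBB3 and AREG that lie upstream of the brightest probe of the gene and are described beside it below. Capitals mark CpG dinucleotides, the sites at which UHRF1 acts in DNA methylation, and of these probes the one of AREG holds them.
EGFR probe (chr7:55231446-55231505, + strand, hg19): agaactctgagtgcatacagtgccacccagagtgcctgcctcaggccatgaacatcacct
ERBB3 probe (chr12:56482380-56482439, + strand, hg19): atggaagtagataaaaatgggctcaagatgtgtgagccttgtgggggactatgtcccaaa
AREG probe (chr4:75318293-75318352, + strand, hg19): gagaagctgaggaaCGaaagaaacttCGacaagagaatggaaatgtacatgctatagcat

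The second set holds the 250 bases before the RefSeq start of EGFR, the receptor that fell with UHRF1 depletion, and of the neighboring ligand genes AREG and EREG. The RefSeq promoter table (GRCh38.p14) held entries for 8 of the 10 genes. Capitals again mark CpG dinucleotides.
EGFR promoter (chr7:55018767-55019016, + strand, GRCh38.p14): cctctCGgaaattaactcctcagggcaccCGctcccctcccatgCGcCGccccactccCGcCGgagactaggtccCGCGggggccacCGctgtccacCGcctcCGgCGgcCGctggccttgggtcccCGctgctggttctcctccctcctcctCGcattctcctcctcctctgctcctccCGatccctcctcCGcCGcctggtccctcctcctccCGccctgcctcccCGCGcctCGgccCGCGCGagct
AREG promoter (chr4:74444886-74445135, + strand, GRCh38.p14): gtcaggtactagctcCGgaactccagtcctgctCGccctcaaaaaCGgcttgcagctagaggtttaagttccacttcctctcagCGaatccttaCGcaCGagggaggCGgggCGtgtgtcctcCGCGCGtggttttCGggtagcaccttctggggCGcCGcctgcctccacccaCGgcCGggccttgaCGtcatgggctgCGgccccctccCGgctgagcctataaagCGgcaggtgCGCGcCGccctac
EREG promoter (chr4:74364895-74365144, + strand, GRCh38.p14): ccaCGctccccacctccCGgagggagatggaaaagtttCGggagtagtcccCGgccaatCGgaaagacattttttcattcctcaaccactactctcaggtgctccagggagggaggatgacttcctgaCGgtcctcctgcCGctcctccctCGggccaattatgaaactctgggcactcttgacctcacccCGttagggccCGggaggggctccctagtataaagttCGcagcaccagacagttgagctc

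The EGFR window held 25 CpG, and 78.4% of the 35116 promoter windows of this length in the table held fewer. AREG and ERBB2 held 23 each, above 74.2% of windows, whereas EREG held 11 (49.7%), BTC 8 (43.7%) and EPGN 3 (22.9%). HBEGF had the most, 33 (91.9%), and the first start site of TGFA had 27 (82.3%). The letters TGACGTCA, the cyclic AMP response element, which reads the same on both strands, occurred once in AREG and in no other window of the members, and 1.65% of all windows hold it. The GC box GGGCGG on either strand occurred in EGFR (2), AREG (1), HBEGF (5) and TGFA (3) and in 42.6% of all windows. The AP-1 letters TGANTCA, the same on both strands, occurred once in ERBB2, in 6.57% of all windows, and 2 times in a second start site of EGFR. The ERBB2 window overlapped PGAP3 over 214 bases, a gene on the other strand. These are descriptions of letters, and DNA methylation at these windows was not analysed here.

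UHRF1 itself was lower on every siUHRF1 array. Its level was 1.98 and 2.01 on the siCONT mock arrays and 0.34 and -0.02 with siUHRF1-1 and siUHRF1-2 under mock. Under TSA it was 1.04 and 1.01 in siCONT and -1.55 and -2.14 in siUHRF1 cells. The change with depletion was -1.83 under mock (adjusted p = 0.0120, 0.252 with the siCONT arrays as 1 sample) and -2.87 under TSA (adjusted p = 0.00234 and 0.0535).

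All arrays lay on 1 slide and in 1 scan, with mock in the first slide row and TSA in the second, so that TSA and slide row cannot be told apart. The siCONT arrays lay in slide columns 1 and 2 and the siUHRF1 arrays in columns 3 and 4, so that UHRF1 depletion and slide column cannot be told apart either. The share of probes above background ranged from 43.3% to 48.0%, and the number of arrays limits the precision. The siCONT arrays of an agent differed by 1.09 to 1.18 times the noise of repeated spots, against 10.5 to 12.7 times for the different siRNAs. Each siCONT pair was therefore counted as 1 sample in means, which carry no SD, and the adjusted p with the siCONT arrays as 1 sample, or the count of calls in that fit, is given beside the calls. Neither the labels nor the methods say whether arrays of a group came from separate cultures, so the p-values may measure technical spread. All 9 colorectal epithelial markers (EPCAM, CDH1 and CDX2 among them) were above background on all arrays, with a summed intensity between 113200 and 182200. Markers of fibroblasts, leukocytes and endothelium summed to at most 257, 337 and 263 on any array. By their brightest probes, COL1A2, COL3A1, PTPRC, CD3E, PECAM1 and KDR were above background on no array. The fibroblast sum moved with the treatment, from 18.7 to 25.9 on the mock arrays to between 68.3 and 257 on the TSA arrays, where COL1A1 was above background. The endothelial sum was at most 27.5 in siCONT with mock, 59.5 to 101 in siUHRF1 with mock, 163 to 165 in siCONT with TSA and 259.5 to 263 in siUHRF1 with TSA. The leukocyte sum was 65.0 to 77.2 on the siCONT arrays and 117 to 337 on the siUHRF1 arrays. Single epithelial markers moved as well: LGALS4, which encodes galectin 4, had a level of 1.87 and 2.05 in siCONT with mock, 5.04 and 5.09 in siUHRF1 with mock, -1.63 and -1.59 in siCONT with TSA and 0.08 and -0.07 in siUHRF1 with TSA. The part of these markers in the results was not tested.

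ERBB2, the receptor without a ligand, had a range of 2.10 between its group means. Its brightest probe (A_23_P89249, chromosome 17, 37884829 to 37884888, hg19), spotted 10 times, had a level of 4.71 and 4.73 on the siCONT mock arrays and 4.72 and 4.66 on the siUHRF1 mock arrays. Under TSA the level was 3.14 on both siCONT arrays and 2.73 and 2.50 with siUHRF1-1 and siUHRF1-2. All TSA arrays were below all mock arrays, the mock groups overlapped, and the siUHRF1 TSA arrays were the lowest. TSA lowered ERBB2 by 1.58 ± 0.12 (SE) in siCONT cells, or 2.99-fold (adjusted p = 0.000646, 0.0822 with the siCONT arrays as 1 sample). In UHRF1-depleted cells TSA lowered it by 2.07 ± 0.12, or 4.20-fold (adjusted p = 0.000207 and 0.00574). Depletion plus TSA against siCONT with mock gave a change of -2.10 ± 0.12, or 4.29-fold (adjusted p = 0.000156 and 0.0120). UHRF1 depletion under mock gave a change of -0.03, with a 95% interval from -0.33 to 0.27. Under TSA the siUHRF1 arrays were lower by 0.52 (adjusted p = 0.0367 and 0.463), which is under 2-fold.

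ERBB3, the receptor for neuregulins, had the same order of group means. Its brightest probe (A_23_P349416, chromosome 12, 56496160 to 56496219, hg19) had a level of 3.82 and 3.90 in siCONT with mock and 3.99 and 3.54 in siUHRF1 with mock. Under TSA the level was 2.51 and 2.56 in siCONT cells and 1.80 and 1.82 in siUHRF1 cells. As with ERBB2, the mock groups overlapped, every TSA array was below every mock array, and depletion with TSA was the lowest group. TSA lowered ERBB3 by 1.33 ± 0.17 (SE) in siCONT cells, or 2.51-fold (adjusted p = 0.00239, 0.132 with the siCONT arrays as 1 sample). In depleted cells the change with TSA was -1.96 ± 0.17 (adjusted p = 0.000567 and 0.00880). Depletion plus TSA against siCONT with mock gave -2.05 ± 0.17, or 4.14-fold (adjusted p = 0.000379 and 0.0164). UHRF1 depletion under mock changed ERBB3 by -0.09, with an interval from -0.49 to 0.31. Under TSA the difference between siUHRF1 and siCONT was -0.72 (adjusted p = 0.0342 and 0.388), below the 2-fold minimum.

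For both genes the effect of UHRF1 depletion was more negative under TSA than under mock, by 0.49 ± 0.17 (SE) for ERBB2 and 0.63 ± 0.23 for ERBB3. Neither interaction passed the test (adjusted p = 0.134 and 0.146, limma). A larger response of these receptors to TSA in depleted cells was thus not shown by the test of the difference itself.

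**Figure D1:**
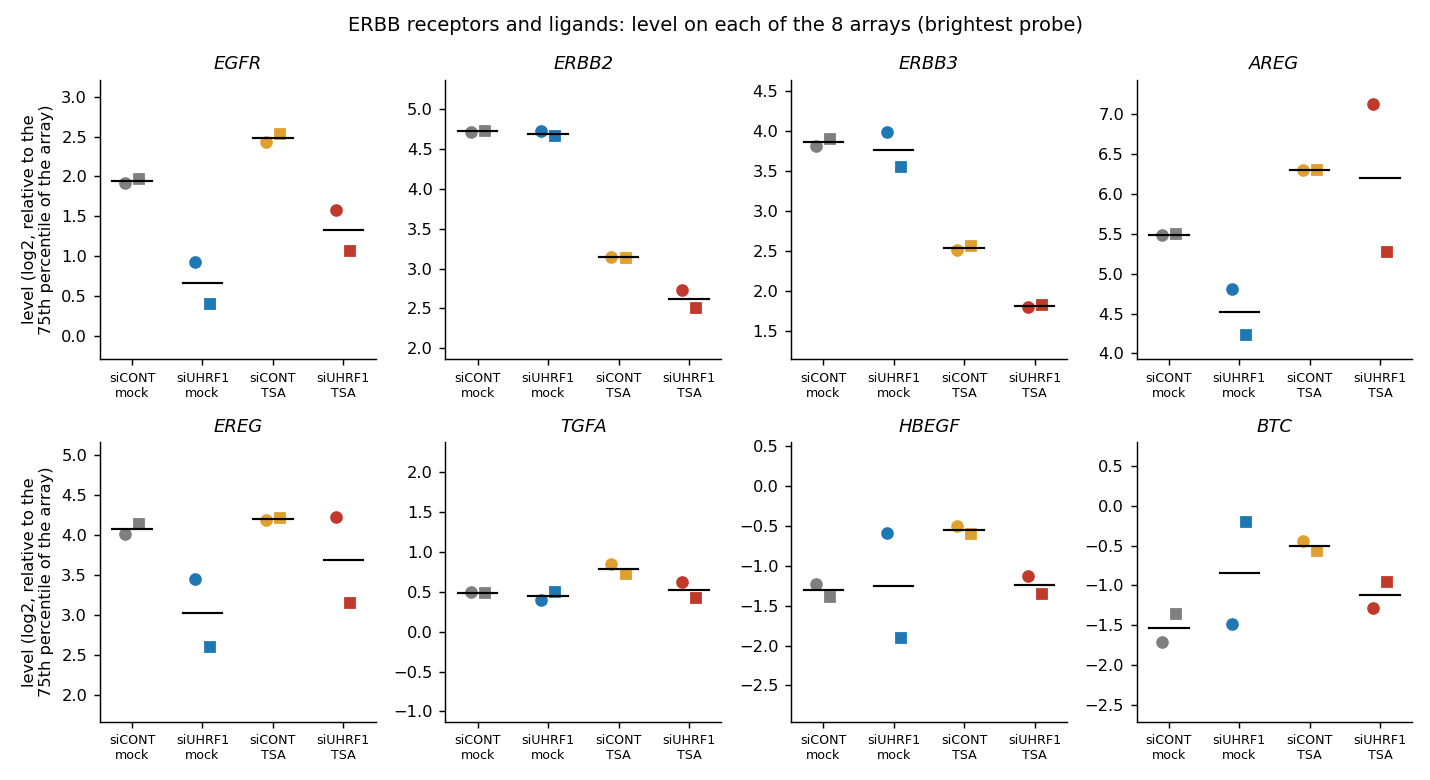
Level of the brightest probe of the 8 members above background, by group. Each point is an array (circle, replicate 1 or siUHRF1-1; square, replicate 2 or siUHRF1-2), bars are group means, and the y axis is log2 intensity minus the array's 75th percentile, with the same span in every panel. ERBB2 and ERBB3 drop on the TSA arrays, EGFR drops on the siUHRF1 arrays, and AREG spreads from 5.27 to 7.13 between the siRNAs under TSA.

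By its brightest probe, EGFR went down with UHRF1 depletion and showed no loss with TSA. Its brightest probe (A_23_P215790, chromosome 7, 55274841 to 55274900, hg19) had a level of 1.92 and 1.96 in siCONT with mock and 0.93 and 0.40 with siUHRF1-1 and siUHRF1-2. Under TSA the level was 2.43 and 2.53 in siCONT cells and 1.58 and 1.07 in siUHRF1 cells. The groups did not overlap, and their order from high to low was siCONT with TSA, siCONT with mock, siUHRF1 with TSA and siUHRF1 with mock. UHRF1 depletion changed EGFR by -1.28 ± 0.24 (SE) without TSA (adjusted p = 0.0324) and by -1.15 ± 0.24 with it (adjusted p = 0.0255). The siRNAs agreed in direction: siUHRF1-1 was lower than siCONT by 1.01 under mock and 0.89 under TSA, and siUHRF1-2 by 1.55 and 1.41. With the siCONT arrays as 1 sample, the adjusted p was 0.422 and 0.287, so both calls rest on the siCONT arrays being counted separately. The depletion effects under mock and TSA differed by 0.13, with an interval from -0.68 to 0.94.

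TSA gave positive EGFR differences that did not pass the test, 0.53 in siCONT cells (adjusted p = 0.117) and 0.66 in depleted cells (adjusted p = 0.0684). Depletion plus TSA against siCONT with mock gave -0.62 (adjusted p = 0.0745). The EGFR call under mock was lost without either siCONT mock array (adjusted p = 0.179 and 0.178), without either siCONT TSA array (0.0856 in each case) and without siUHRF1-2 under mock (-1.01, adjusted p = 0.0590). The call under TSA was lost without either siCONT TSA array (0.129 and 0.149), without either siCONT mock array (0.0589 in each case) and without siUHRF1-2 under TSA (-0.89, adjusted p = 0.0731).

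Among the 8 members tested, 1 was called in UHRF1 depletion against siCONT under mock (EGFR, lower), where 4.2% of all genes tested were called, 3.3% higher and 0.9% lower. In TSA against mock in siCONT, 2 were called (ERBB2 and ERBB3, lower), beside 18.7% of all genes, 10.4% higher and 8.32% lower. Depletion plus TSA against siCONT with mock gave the same 2 genes, beside 26.4% of all genes, 15.3% higher and 11.1% lower. UHRF1 depletion under TSA gave EGFR alone, beside 8.79%, of which 5.91% were higher and 2.88% lower. TSA in UHRF1-depleted cells gave ERBB2 and ERBB3, beside 21.3%, with 12.2% higher and 9.07% lower. The interaction called 0 of 8 members by limma, beside 5.04% of all genes, 3.01% higher and 2.03% lower, and 2 members had an unadjusted p under 0.05. With the siCONT arrays as 1 sample, the members called were 2 for depletion plus TSA against siCONT with mock, where 16.2% of all genes were called, and 2 for TSA in depleted cells (18.2%). They were 0 under UHRF1 depletion with mock (0.0238%), TSA in siCONT (1.65%), UHRF1 depletion under TSA (0.797%) and the interaction (0%). With at most 2 of 8, these counts do not set the members apart from the array. These shares move with the scaling: of the probes called for depletion plus TSA, 56.8% were higher as reported, 31.6% under median scaling and 72.0% with the percentile taken over detected probes, while ERBB2 and ERBB3 stayed lower under each. The comparisons share arrays, since depletion under mock, TSA in siCONT and depletion plus TSA are all set against the siCONT mock arrays.

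**Figure D2:**
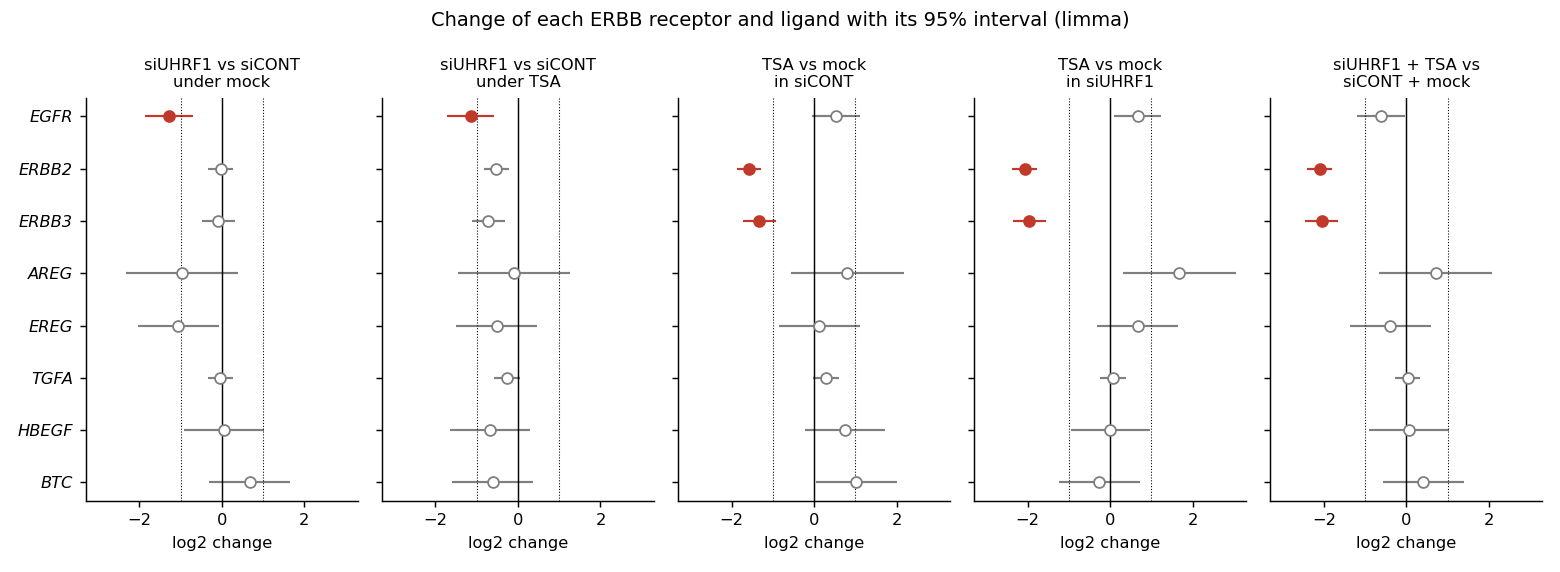
Log2 change of the brightest probe of each tested member in 5 comparisons (x axis), with its 95% interval from limma as a bar. Filled red points passed the adjusted p threshold and the 2-fold minimum, open grey points did not, and dotted lines mark 2-fold. The calls lie in the receptors alone: EGFR at -1.28 and -1.15 with UHRF1 depletion, and ERBB2 and ERBB3 between -1.33 and -2.10 where TSA was given.

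The probes of a receptor gene did not all move together. The upstream probe of ERBB3 printed above, A_33_P3280471, had a level of -2.30 and -2.07 in siCONT with mock and -2.93 and -2.42 in siUHRF1 with mock, and was above background on none of the TSA arrays. It was thus at least 2.94-fold lower with TSA in siCONT cells (adjusted p = 0.00220, 0.0773 with the siCONT arrays as 1 sample) and at least 2.57-fold lower with depletion plus TSA (adjusted p = 0.00365 and 0.0391), the same direction as the brightest probe. A bound of this kind sets the brighter group against the lowest level above background on the dim arrays. Here and below, such a probe entered the test only through its brighter group. Its p-value uses readings below background on the dim arrays, and no support is drawn from it. The third ERBB3 probe (A_33_P3211569, chromosome 12, 56479217 to 56479276, hg19), which the files assign to another transcript record of ERBB3, stayed between 1.13 and 1.49 on all arrays. Its change with depletion plus TSA was -0.11, with an interval from -0.46 to 0.25.

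The second ERBB2 probe (A_33_P3292596, chromosome 17, 37851136 to 37851195, hg19) went another way than the brightest one. It lies upstream of the brightest probe and is dim, with a level of -1.99 and -2.48 in siCONT with mock and -1.82 and -1.14 in siCONT with TSA. It was not above background with either siRNA under mock and had a level of -1.31 and -1.96 in siUHRF1 with TSA. UHRF1 depletion under mock left it at least 2.57-fold lower (adjusted p = 0.0189, 0.179 with the siCONT arrays as 1 sample). In depleted cells it was at least 3.90-fold higher with TSA than with mock (adjusted p = 0.00147 and 0.00562), where the brightest probe fell 4.20-fold. The difference between these probes is given as measured, and the fall of ERBB2 refers to the brightest probe.

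The dimmer EGFR probes were split. The probe printed above, A_33_P3351955, was lower with UHRF1 depletion by 0.81 in TSA cells (adjusted p = 0.0252), under 2-fold. In mock cells the fitted difference was -0.66 (adjusted p = 0.0612), but the probe was not above background with siUHRF1-2 there, so the size of that difference is uncertain. The remaining probe, A_33_P3351944 (chromosome 7, 55224558 to 55224617, hg19), changed by -1.23 under mock (adjusted p = 0.106). Under TSA it changed by 0.00, with a level of -1.24 for siUHRF1-1 and -2.48 for siUHRF1-2. With TSA in siCONT cells, A_33_P3351955 changed by 0.70 (adjusted p = 0.0197), under 2-fold, and A_33_P3351944 by -0.53 (adjusted p = 0.327). With TSA in depleted cells, A_33_P3351955 changed by 0.55 (adjusted p = 0.0421) and A_33_P3351944 by 0.70 (adjusted p = 0.217). Neither dim probe was called in any comparison.

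**Figure D3:**
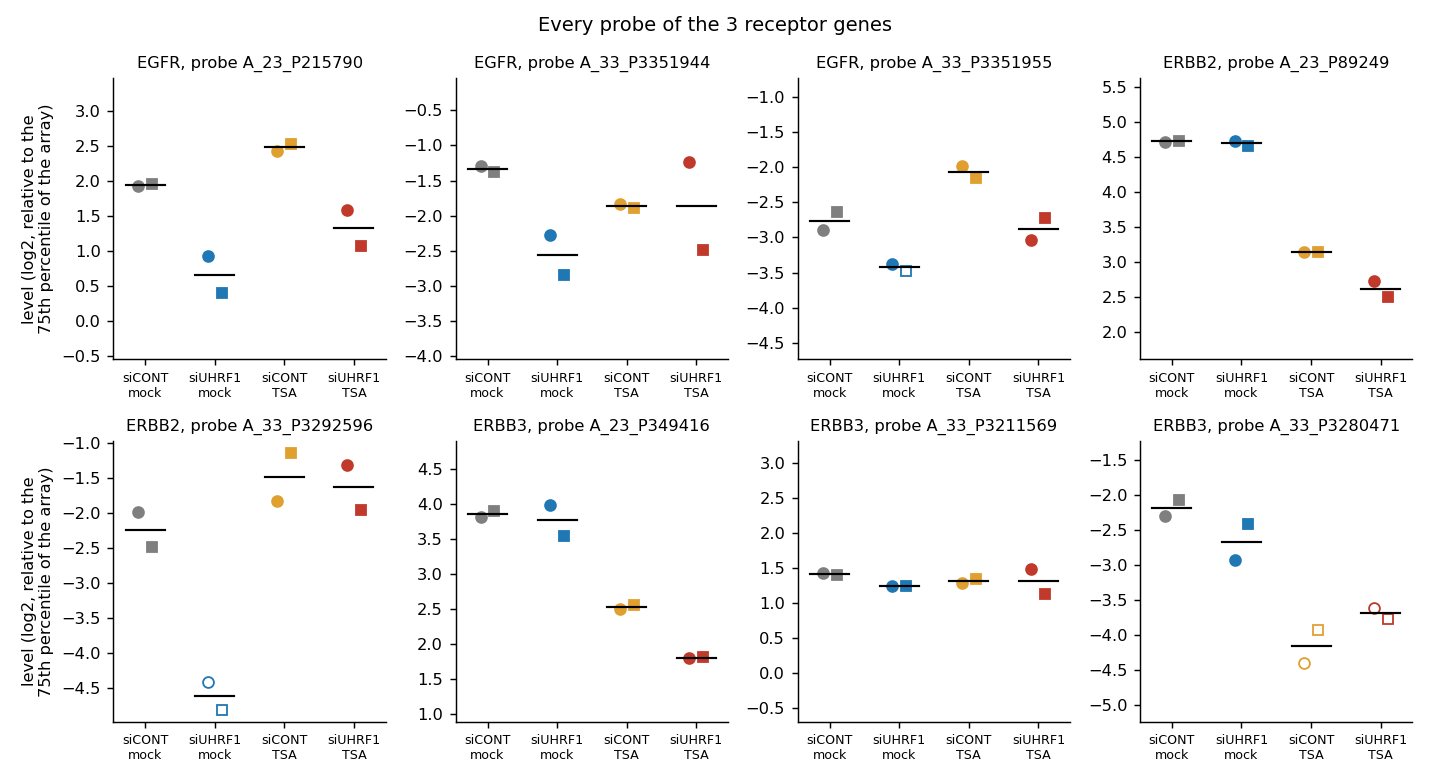
Level of each of the 8 probes of EGFR, ERBB2 and ERBB3, by group. Points are arrays (circle, replicate 1 or siUHRF1-1; square, replicate 2 or siUHRF1-2; open, not above background), bars are group means, and the y axis is log2 intensity minus the array's 75th percentile, with the same span in every panel. The dim ERBB2 probe A_33_P3292596 is lowest in siUHRF1 with mock, whereas A_23_P89249 is lowest with TSA.

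AREG, which encodes amphiregulin, differed widely between the siRNAs under TSA. Its brightest probe (A_23_P259071, chromosome 4, 75320518 to 75320577, hg19) had a level of 5.48 and 5.50 in siCONT with mock and 4.81 and 4.24 with siUHRF1-1 and siUHRF1-2. Under TSA it was 6.29 and 6.30 in siCONT cells, but 7.13 with siUHRF1-1 and 5.27 with siUHRF1-2. So under mock both siRNAs were below siCONT, by 0.68 and 1.25, whereas under TSA siUHRF1-1 lay 0.83 above siCONT and siUHRF1-2 lay 1.03 below it. The fitted depletion effect under TSA was -0.10, with an interval from -1.47 to 1.27, and says little about either siRNA. TSA against mock was positive within every siRNA, at 0.81 in siCONT, 2.32 with siUHRF1-1 and 1.03 with siUHRF1-2.

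In the test, the TSA difference of AREG in depleted cells was 1.68 ± 0.56 (SE), with adjusted p = 0.0576 (0.128 with the siCONT arrays as 1 sample). The probe printed above, A_33_P3419190, gave 1.76 with adjusted p = 0.0443 (0.106), just past the threshold. This probe had a level of 3.73 and 3.72, 2.88 and 2.46, 4.61 and 4.50, and 5.34 and 3.52 in the order of the groups given for the first probe, which is the same pattern. Without siUHRF1-2 under TSA the AREG difference in depleted cells was 2.60 (adjusted p = 0.00349), so the call depends on this array. The difference between siCONT with TSA and siCONT with mock was 0.81 (adjusted p = 0.286), against a spread set mostly by the siRNAs.

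EREG, the gene of epiregulin and the neighbor of AREG, followed it under mock and less so under TSA. Its probe (A_23_P41344, chromosome 4, 75254009 to 75254068, hg19) had a level of 4.02 and 4.14 in siCONT with mock and 3.45 and 2.60 in siUHRF1 with mock. Under TSA it was 4.19 and 4.21 in siCONT cells and 4.22 and 3.15 in siUHRF1 cells. Both siRNAs gave lower values than siCONT under mock, and under TSA only siUHRF1-2 did. The change under mock was -1.06 ± 0.40 (SE), with adjusted p = 0.142, and TSA in siCONT cells gave 0.12, with an interval from -0.86 to 1.10.

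The other EGFR ligands gave small or uneven differences. TGFA, which encodes transforming growth factor alpha, had a level of 0.50 and 0.48 in siCONT with mock, 0.40 and 0.50 in siUHRF1 with mock, 0.84 and 0.72 in siCONT with TSA and 0.62 and 0.42 in siUHRF1 with TSA (probe A_33_P3408203). Its intervals in the 5 comparisons of groups all lay between -0.57 and 0.60, short of 2-fold. These intervals count the siCONT arrays separately, so they may be too narrow to set a 2-fold change aside. The second TGFA probe was dim, was above background on 6 arrays, and was called in no comparison.

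HBEGF, the heparin-binding ligand, had a level of -1.22 and -1.39 in siCONT with mock and -0.59 and -1.91 with siUHRF1-1 and siUHRF1-2 under mock. With TSA it was -0.50 and -0.61 in siCONT cells and -1.13 and -1.35 in depleted cells. The siRNAs under mock thus lay on both sides of siCONT. BTC, the gene of betacellulin, had a level of -1.71 and -1.35 in siCONT with mock and -1.49 and -0.21 in siUHRF1 with mock. With TSA it was -0.44 and -0.57 in siCONT and -1.28 and -0.95 in siUHRF1 cells. The TSA difference of BTC in siCONT was 1.02 ± 0.40 (SE), with adjusted p = 0.0882, and that of HBEGF was 0.75 (adjusted p = 0.174).

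In siCONT cells the TSA difference was positive for all 5 ligands measured, from 0.12 for EREG to 1.02 for BTC, with a median of 0.75 beside -0.13 over all genes tested. None of the 5 was called by limma, 1 had an unadjusted p under 0.05 (BTC), and the methods' t-test gave 1 at its unadjusted threshold and 0 after Benjamini-Hochberg adjustment. For UHRF1 depletion under mock the ligands had a median of -0.04, beside -0.10 over all genes, with 0 calls and 1 unadjusted p under 0.05. For depletion plus TSA the ligand median was 0.07, beside -0.14 over all genes, with 0 calls and 0 unadjusted p under 0.05. For TSA in depleted cells the ligand median was 0.07, beside -0.04, with BTC at -0.26. For UHRF1 depletion under TSA the fitted difference was negative for all 5 ligands, with a median of -0.51 beside 0.01 over all genes, but with siUHRF1-1 alone 2 of the 5 were positive and the median was -0.16. None of the 5 was called by limma in either of these comparisons, 1 and 0 had an unadjusted p under 0.05, and the methods' t-test gave 0 in both. The median of the 3 receptors was -0.09 with UHRF1 depletion alone, -1.33 with TSA alone and -2.05 with both.

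EPGN (1 probe), encoding epigen, and NRG1 (3 probes), encoding neuregulin 1, were above background on no array and were not tested. Levels of the EPGN probe lay between -5.75 and -5.30 and those of the NRG1 probes between -5.95 and -3.99, and such levels set no order of groups. Of the family genes outside the members, the receptor ERBB4 and the ligands EGF, NRG2 and NRG3 were also above background on no array. NRG4, a ligand of ERBB4, was above background on 3 arrays: siUHRF1-2 under mock (level -2.55) and both siUHRF1 TSA arrays (-3.08 and -2.49). It was at least 1.53-fold higher with depletion plus TSA than in siCONT with mock. It entered that test only through the siUHRF1 TSA arrays, so its p-value is not given.

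The chromosomal neighbors were examined because AREG and EREG lie side by side, and because the adaptor gene GRB7 lies close to ERBB2. Up to 3 protein-coding genes on each side of a member were taken in RefSeq order, after earlier results had been seen. Around ERBB2, 5 of 6 neighbors could be tested for depletion plus TSA. GRB7, whose protein binds activated ERBB2, had a level of 1.81 and 1.78 in siCONT with mock, 1.22 and 0.33 in siUHRF1 with mock, 0.27 and 0.26 in siCONT with TSA and -0.35 and -0.27 in siUHRF1 with TSA. It fell by 2.10 ± 0.28 (SE) with depletion plus TSA (adjusted p = 0.00180, 0.0331 with the siCONT arrays as 1 sample), like ERBB2.

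MIEN1 lies between ERBB2 and GRB7 and did not fall: its level was 5.24 and 5.29 in siCONT with mock and 5.62 and 5.54 in siUHRF1 with TSA, a change of 0.32 ± 0.11 (adjusted p = 0.0580). PGAP3, the neighbor of ERBB2 on the opposite side, changed by -0.54 (adjusted p = 0.0474), under 2-fold, and was called for TSA in depleted cells (-1.06, adjusted p = 0.00546, 0.0462 with the siCONT arrays as 1 sample). PNMT, the next gene on that side, was not above background in siCONT with mock and was at least 4.31-fold higher with depletion plus TSA. It entered that test only through the siUHRF1 TSA arrays, so its p-value is not given. As MIEN1 did not fall, the fall was not shared by all genes of this stretch.

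Around ERBB3, all 6 neighbors could be tested for depletion plus TSA, and 1 was called, where 26.4% of all genes were called. PA2G4, which encodes an ERBB3-binding protein, fell by 1.17 ± 0.13 (SE) with depletion plus TSA (adjusted p = 0.000924, 0.0460 with the siCONT arrays as 1 sample), while ERBB3 fell by 2.05. Its level went from 7.15 and 7.13 in siCONT with mock to 6.09 and 5.84 in siUHRF1 with TSA. None of the tested neighbors of EGFR (3), AREG (2) and EREG (2) outside the members was called in that comparison.

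**Figure D4:**
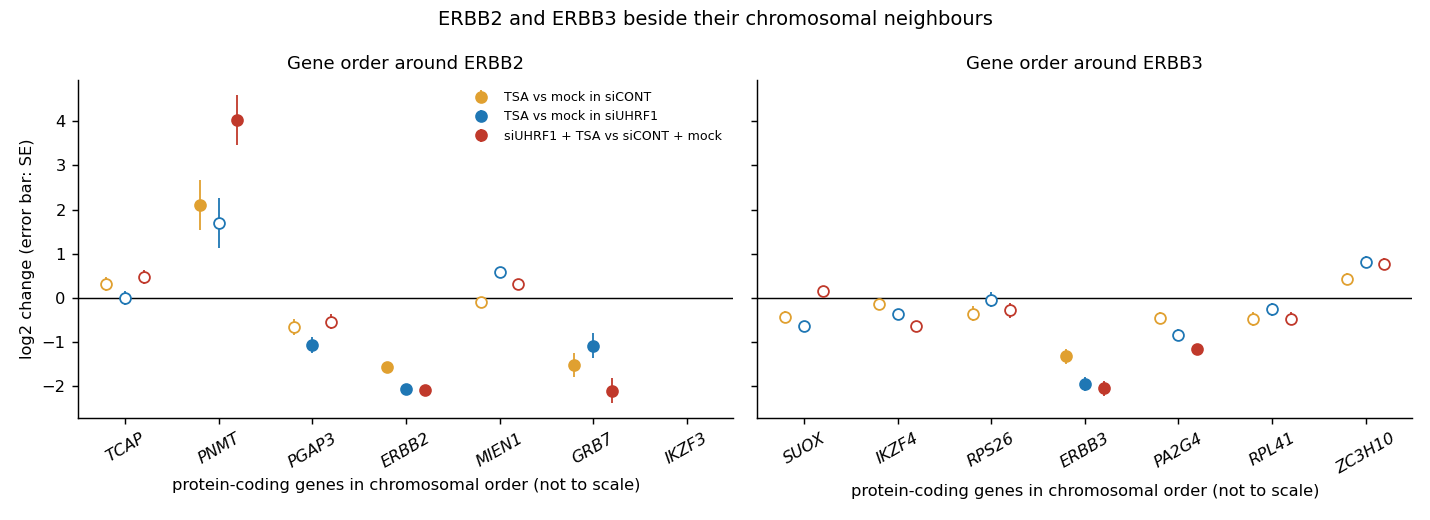
Log2 change of ERBB2 and ERBB3 and of up to 3 protein-coding genes on each side, in chromosomal order (x axis, not to scale), for TSA in siCONT, TSA in siUHRF1, and depletion plus TSA against siCONT with mock. Filled points were called, open points were not, bars are SE, and IKZF3 was above background on no array. ERBB2 and GRB7 both lie at -2.10 for depletion plus TSA, with MIEN1 between them at 0.32.

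The genes with the profile most like a member were found by Pearson's r over the 8 arrays, among 5077 genes above background on all arrays with group means that span at least 1. For ERBB2 they were an unnamed probe ( A_32_P152696), CPNE7, THAP4, OSGEP and PWP2, with r from 0.996 to 0.998. For AREG, the ligand with the widest range of group means, they were GDF11, the transcript XLOC_003296, KLHL8, ECI2 and IGSF8, with r from 0.965 to 0.984. The arrays fall into 4 treatment groups, so r mostly compares 4 group means.

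The other genes of the pathway were described by lists that follow the signal from ligand release to its targets. Of 7 genes of ligand shedding and trafficking, 5 could be tested for depletion plus TSA. In this comparison 1 of them was called, where 26.4% of all genes were called. FRMD8, which stabilizes the iRhom proteins that carry ADAM17 to the cell surface, was higher by 1.01 (adjusted p = 0.0256, 0.166 with the siCONT arrays as 1 sample). The sheddases ADAM17 and ADAM10 gave 0.38 and -0.20 (adjusted p = 0.214 and 0.289), and RHBDF1, an iRhom, gave -0.13 (adjusted p = 0.399). The median of the list was -0.01.

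Of the 28 genes of adaptors and signal relay, all could be tested for depletion plus TSA, 1 was higher and 2 were lower, with a median of -0.27 beside -0.14 over all genes. These 3 are 2 with the siCONT arrays as 1 sample, and 26.4% of all genes were called in this comparison. PIK3R3, a regulatory subunit of PI3 kinase and the 1 higher call, was at least 4.67-fold higher. It was not above background in siCONT with mock. It entered that test only through the siUHRF1 TSA arrays, so its p-value is not given. GRB7 is given above, and the transcription factor gene STAT5B fell by 1.01 (adjusted p = 0.00568 and, with the siCONT arrays as 1 sample, 0.0921). MAPK3, which encodes the kinase ERK1, gave -0.91 (adjusted p = 0.00227), under 2-fold, and fell by 1.01 with TSA in siCONT cells and by 1.01 in depleted cells. With the siCONT arrays as 1 sample, the adjusted p of these MAPK3 calls was 0.173 and 0.0358, against 0.00253 and 0.00208. The RAS, RAF and MEK genes and the other PI3 kinase and AKT genes on the list were not called in depletion plus TSA.

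Of the receptor inhibitors and degradation factors, 7 of 14 were called for depletion plus TSA, 4 higher and 3 lower, with a median of -0.32, where 26.4% of all genes were called. With the siCONT arrays as 1 sample, 2 of the 14 were called. LRIG1, which encodes a membrane protein that promotes the degradation of ERBB receptors, had a level of -4.52 and -4.30 in siCONT with mock, -3.39 and -2.84 in siUHRF1 with mock, -3.02 and -2.90 in siCONT with TSA and -1.73 and -1.92 in siUHRF1 with TSA. LRIG1 was not above background in siCONT with mock or with siUHRF1-1 under mock, and was at least 2.97-fold higher with depletion plus TSA. It is among the higher calls counted above. It entered that test only through the siUHRF1 TSA arrays, so its p-value is not given. The adaptor gene GRB10 rose by 1.35 (adjusted p = 0.000569 and 0.0326). RNF41, whose ubiquitin ligase degrades ERBB3, fell by 1.34 (adjusted p = 0.0220 and 0.141). This fall differed between the siRNAs: under TSA the RNF41 level was -1.57 with siUHRF1-1 and -0.45 with siUHRF1-2. It was 0.35 and 0.32 in siCONT with mock and -0.42 and -0.48 in siCONT with TSA. The phosphatase gene PTPRJ fell by 1.30 (adjusted p = 0.0431 and 0.198).

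The ERK targets and feedback genes did not go one way. For UHRF1 depletion under mock, 1 of the 16 genes was called, lower, where 4.2% of all genes were called. The median of the 16 was -0.88, beside -0.10 over all genes. This median rests on siUHRF1-2: it was -1.32 with siUHRF1-2 alone and -0.31 with siUHRF1-1 alone, where 7 of the 16 genes were higher than in siCONT. For TSA in siCONT the median was 0.62, beside -0.13, with 2 higher and 2 lower, where 18.7% of all genes were called. For depletion plus TSA it was 0.06 (0.16 and -0.20 with siUHRF1-1 and siUHRF1-2 alone), with 1 higher and 3 lower, where 26.4% of all genes were called. With the siCONT arrays as 1 sample, 0 of the 16 were called by limma in each of these 3 comparisons, and 8, 6 and 6 had an unadjusted p under 0.05 in the fit with all arrays. The methods' t-test gave 1, 7 and 3 at its unadjusted threshold. EGR1, an immediate early gene, had a level of 5.20 and 5.16 in siCONT with mock, 3.84 and 2.05 in siUHRF1 with mock, 2.25 and 2.24 in siCONT with TSA and 2.53 and 1.64 in siUHRF1 with TSA. It fell by 3.09 with depletion plus TSA (adjusted p = 0.00672 and 0.0597), PHLDA1 fell by 2.34 (0.00911 and 0.0752) and IER3 by 1.18 (0.0287 and 0.168). SPRY1, a feedback inhibitor of receptor tyrosine kinases, rose by 1.30 (adjusted p = 0.00590 and 0.0759). Its interaction was 1.63 (adjusted p = 0.0471 and 0.497), the 1 call of the interaction in this list, where 5.04% of all genes were called.

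**Figure D5:**
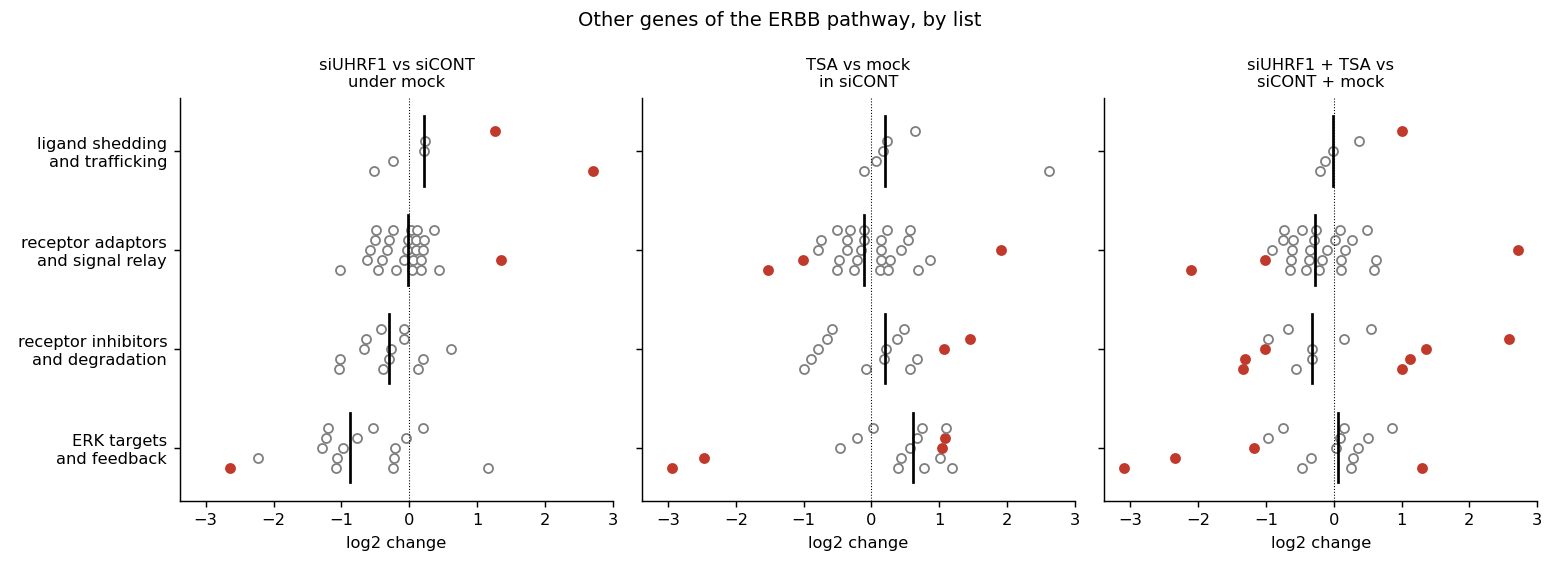
Log2 change (x axis) of each tested gene of the 4 pathway lists in 3 comparisons, by its brightest probe. Red points were called, open points were not, black bars are list medians, and the vertical position within a list only separates points. The ERK targets have a median of -0.88 with UHRF1 depletion, which is -0.31 with siUHRF1-1 alone, and of 0.62 with TSA in siCONT, and the inhibitors split 4 to 3 with depletion plus TSA.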

How the data were processed

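RNA of DLD1 cells was measured on 8 single-colour arrays, grouped by the labels. Per the file headers, the authors' Feature Extraction (version 10.7.3.1) subtracted background and wrote the deposited processed intensity of each spot, not scaled between arrays. The study's methods name GeneSpring without its normalization. The log2 intensity minus the 75th percentile of the array was fitted with limma 3.58.1 in R 4.3.3, with 4 group means and all 8 arrays (4 residual degrees of freedom, prior 2.17). Tested were probes above background on each array of a compared group, two-sided, with Benjamini-Hochberg adjustment, and called at adjusted p under 0.05 and 2-fold. The probe with the highest mean stood for a gene. Outlier spots were left out. From each pathway list at most 4 genes are named, those with the largest change for depletion plus TSA. The members and lists were chosen with earlier results of these data known. The limma step was tested on simulated data. The alternatives were other scalings, background correction, the deposited series table, filters, the siCONT arrays as 1 sample, a replicate block, the methods' t-test, and each array left out. Promoter sequences came from RefSeq, and probe positions are hg19 as in the files. The submitters' processing notes name Feature Extraction 10.7.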

Additional observations from a re-analysis of the deposited data

How the results depend on the processing

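The calls of ERBB2 and ERBB3 with TSA in siCONT, with TSA in depleted cells and with depletion plus TSA held under every scaling, background and filter alternative and without any single array. The exceptions were TSA in siCONT with the siCONT arrays as 1 sample, which called 0 members in place of 2, and TSA in depleted cells by the methods' t-test after adjustment, which called 0. The EGFR calls were less stable. For UHRF1 depletion under mock, median scaling, no filter on dim probes and the siCONT arrays as 1 sample each called 0 members in place of 1, leaving out 1 array gave 0 to 2 (2 with BTC, without siUHRF1-1 under mock), and counting any probe of a gene gave 2 (EGFR and ERBB2). For UHRF1 depletion under TSA, median scaling called 2, no filter 0, the siCONT arrays as 1 sample 0, and leaving out 1 array 0 to 1. The interaction called 0 to 1 members when 1 array was left out (AREG, HBEGF or BTC) and 0 otherwise. AREG was called for TSA in depleted cells under quantile normalization, the percentile over detected probes, normexp, the stricter filter and the replicate block, with adjusted p from 0.0329 to 0.0453, which made 3 calls.

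Median scaling moved the median of all tested probes from -0.14 to -0.54 for depletion plus TSA and from 0.00 to -0.35 for UHRF1 depletion under TSA. Its added calls, EGFR at -1.02 and ERBB3 at -1.08, moved with that shift, from -0.62 and -0.72. Among probes called for UHRF1 depletion under TSA, 65.2% were higher as reported and 29.1% under median scaling. Normexp called fewer probes in every comparison, 301 in place of 921 under mock and 2639 in place of 6077 for depletion plus TSA. With the replicate block the members called were 1, 2, 2, 1, 3 and 0 in the order of the comparisons given in the report. Same-numbered arrays shared deviations in the siUHRF1 groups (r = 0.34 over 19898 probes), where the number is the siRNA, but not between other groups (r from -0.06 to 0.07). The methods' t-test gave 1, 3, 2, 1 and 2 members at its unadjusted threshold and 0, 2, 2, 0 and 0 after adjustment. By its brightest probe, no member reversed direction where it was called. The second ERBB2 probe was called higher with TSA in depleted cells, where the brightest ERBB2 probe was called lower. It also gave the ERBB2 call when any probe was counted for UHRF1 depletion under mock. The second probe was not above background in siUHRF1 with mock and entered both tests only through its brighter group. No support is drawn from these calls. Signal over background limits the dim probes, above all EPGN, NRG1 and the second ERBB2 probe.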
